A study of Mus musculus with 2 samples.

Results

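The neuronal fate transcription factors described here are 10 genes, Sox4, Sox11, Neurog2, Eomes, Insm1, Neurod1, Neurod2, Neurod6, Prox1 and Bcl11b, of 22587 gene symbols counted in single YFP+ cells of the mouse hippocampus. They were chosen by symbol, as factors known to act between the neural stem cell (NSC) and the immature granule neuron. Earlier results of these data were known when they were chosen, so the list is not independent of the values compared. Cells were compared between control (CT) mice and mice that had lost Opa1, a dynamin-like GTPase of the inner mitochondrial membrane, from adult NSCs (Opa1 cKO). The question was how the programme of neuronal fate differs along the lineage when mitochondria are disrupted.

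In the Opa1 cKO mice (Opa1-Flox;Nestin-CreERT2;ROSA26YFP), tamoxifen (TAM) at 8 weeks of age turned on Cre in nestin-expressing cells, which recombines the floxed Opa1 allele and switches on YFP. The CT mice received the same tamoxifen and carried Nestin-CreERT2 and ROSA26YFP. Per the methods they had no floxed Opa1, although the strain field of both samples reads the same. Mice of both sexes on a C57/BL/6 background were 12 weeks old, 4 weeks post-TAM, and each genotype's library (10x Genomics, 3′ assay) combined the cells of 3 mice. Each group is therefore 1 pooled sample, so no test between genotypes was possible, no p-value is given, and the intervals (95%) reflect counting error alone.

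Adult-born granule neurons of the dentate gyrus arise from radial glia-like NSCs, which become activated, divide as intermediate progenitors, and mature through a neuroblast stage. Neurog2 and Insm1 act early, in dividing progenitors. Eomes, also called Tbr2, marks intermediate progenitors. The SoxC factors Sox4 and Sox11 and the basic helix-loop-helix factor Neurod1 act as cells commit to a neuronal fate, and Prox1 gives and keeps granule cell identity. Neurod2, Neurod6 and Bcl11b, also called Ctip2, belong to differentiating neurons.

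The CT library held 4634 barcodes and 10799936 unique molecular identifiers (UMIs, 1 per captured mRNA molecule), against 6475 barcodes with 18662032 UMIs from Opa1 cKO. After filters on genes, mitochondrial share and YFP, 1790 CT cells with a median of 2555 UMIs and 3764 Opa1 cKO cells with a median of 3008 UMIs remained. 36 barcodes occurred in both libraries, 9 of them among the kept cells. Opa1 itself was at 18.8 CPM (UMIs of a gene per 1000000 UMIs of the class, from 69 UMIs) in CT NSC pool-like cells and at 7.51 CPM (66 UMIs) in Opa1 cKO cells, as the labels say. In later stages it had too few UMIs to check them, and the 3′ assay also counts Opa1 transcripts that lack the deleted exons.

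Cells were placed in classes named from markers, with the 10 factors, the mitochondrial mRNAs and the genes of the integrated stress response kept out of the clustering, so that a class does not rest directly on the levels compared. Genes that vary with them stayed in. NSC pool-like cells numbered 1340 in CT and 2644 in Opa1 cKO. Activated NSC-like cells numbered 41 and 242, cycling progenitor-like cells 47 and 70, and neuroblast-like cells 96 and 105. Each cluster could take only the type with the highest share of raised markers, and no class was named immature neuron. In neuroblast-like cells, 10 of the 12 markers of that stage had at least 20 UMIs, with a summed level of 3752 CPM in CT against 4090 CPM in Opa1 cKO. Cycling progenitor-like and neuroblast-like cells together, called progenitor and neuron-like, made up 143 of 1527 lineage cells in CT (9.37%, 7.95 to 10.9) and 175 of 3164 in Opa1 cKO (5.53%, 4.76 to 6.39). These totals also held 3 CT and 73 Opa1 cKO cells with microglia markers and 30 ependymal-like cells of Opa1 cKO, which lower the Opa1 cKO share more. Most CT NSC pool-like cells (1331) fell in one lineage cluster and most Opa1 cKO cells (1855) in another, so values within this class compare partly different clusters. Among the 10 leading genes were mt-Co3, mt-Co1 and mt-Cytb in the first and Trib3, Ddit3 and Chac1 in the second. These genes had been kept out of the clustering. Activated NSC-like cells likewise joined 2 clusters, one with 29 CT and 129 Opa1 cKO cells, and one with 12 CT and 113 Opa1 cKO cells. Divided at a finer resolution, the same lineage cluster gave stages named NSC pool (20 CT and 97 Opa1 cKO cells, and 9 and 28 cells) or activated NSC (0 and 76 cells, and 11 and 39 cells), so values of this class also compare different mixes of cells.

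All 10 factors were counted in both libraries, and 9 of them, all but Bcl11b, had at least 20 UMIs over both libraries in progenitor and neuron-like cells. In mm10 the SoxC genes lie at chr12:27334264-27342574 (Sox11) and chr13:28948919-28953713 (Sox4), and Neurod1 and Neurod2 at chr2:79452521-79456751 and chr11:98325415-98329648, all on the minus strand and protein-coding. An exon of Neurod1 overlaps one of Cerkl on the same strand, so reads in the overlap could have been assigned to either gene. Windows of 300 bases, from 250 before to 50 after the annotated start, were found in RefSeq (GRCm38.p6) for 9 of the 10 genes, all but Insm1. Prox1 had 2 windows, so each count below over 9 genes is the same count over 10 windows. Shares of all genes were counted by window. The E-box CANNTG (either strand), the core letters bound by basic helix-loop-helix factors such as Neurod1 and Neurog2, was present in a window of 6 of these 9 genes, against 72.3% of 32851 windows of all genes, so a match to it is common. The hexamer CATATG, a form of E-box within CANNTG, was present in 3 of 9 (Neurod1, Sox11 and Neurod2, at 242, 32 and 17 bases before the start), against 3.91% of all windows. CAGATG and CAGCTG, also within CANNTG, were each present in 2 of 9, against 17.2% and 16.3%, and the SOX core AACAAT in 1 of 9, against 10.7%. A match describes letters in a window and does not show binding. The windows of the 4 genes on which the results below turn most are shown 5′ to 3′ on the gene's strand, at chr12:27342669-27342968 (Sox11), chr13:28953650-28953949 (Sox4), chr2:79456587-79456886 (Neurod1) and chr11:98329596-98329895 (Neurod2), with each CANNTG in capitals.
Sox11: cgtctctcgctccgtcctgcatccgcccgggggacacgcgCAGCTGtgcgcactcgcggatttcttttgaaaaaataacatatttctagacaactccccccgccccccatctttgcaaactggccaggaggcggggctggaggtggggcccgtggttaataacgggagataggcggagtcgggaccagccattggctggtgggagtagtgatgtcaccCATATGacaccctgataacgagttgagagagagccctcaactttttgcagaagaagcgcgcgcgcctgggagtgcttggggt
Sox4: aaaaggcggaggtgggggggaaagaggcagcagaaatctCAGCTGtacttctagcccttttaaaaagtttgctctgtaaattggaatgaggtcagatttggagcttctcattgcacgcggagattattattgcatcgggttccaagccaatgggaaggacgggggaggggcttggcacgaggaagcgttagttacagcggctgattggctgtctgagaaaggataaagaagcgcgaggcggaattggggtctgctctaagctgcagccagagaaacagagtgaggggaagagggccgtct
Neurod1: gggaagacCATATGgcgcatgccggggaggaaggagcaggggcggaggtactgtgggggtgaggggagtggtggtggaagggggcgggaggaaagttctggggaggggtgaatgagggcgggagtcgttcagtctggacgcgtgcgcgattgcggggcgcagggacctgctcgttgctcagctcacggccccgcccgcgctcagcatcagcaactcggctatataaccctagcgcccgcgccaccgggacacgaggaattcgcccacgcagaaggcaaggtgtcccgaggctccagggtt
Neurod2: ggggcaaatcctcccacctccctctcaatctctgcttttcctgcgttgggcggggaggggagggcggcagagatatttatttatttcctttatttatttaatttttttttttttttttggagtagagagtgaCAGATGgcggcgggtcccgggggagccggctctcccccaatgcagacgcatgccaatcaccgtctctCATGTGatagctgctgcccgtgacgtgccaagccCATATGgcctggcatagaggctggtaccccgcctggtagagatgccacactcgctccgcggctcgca

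Sox11 and Sox4, HMG-box factors needed for neuronal differentiation, had the most UMIs of the 10 factors in every class of the lineage. Both were lower in the Opa1 cKO library at each step, though the interval for Sox11 in activated NSC-like cells included 0. In NSC pool-like cells Sox11 was at 28.9 CPM in CT (106 UMIs) against 13.5 CPM in Opa1 cKO (119 UMIs), which is a log2 ratio of -1.09 (-1.48 to -0.70). The part of free RNA in this ratio was not tested, and levels outside the lineage are given below. In cycling progenitor-like cells Sox11 was at 2535 CPM in CT (2320 to 2764) against 987 CPM in Opa1 cKO (869 to 1117), which is a log2 ratio of -1.36 (-1.58 to -1.14). In neuroblast-like cells it was at 6418 CPM in CT (6113 to 6734) against 3514 CPM in Opa1 cKO (3315 to 3722), which is a log2 ratio of -0.87 (-0.98 to -0.76). The intervals of the 2 libraries did not overlap in these classes, and the level in Opa1 cKO neuroblast-like cells was still above that of CT progenitors.

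Sox4 followed the same order of classes with smaller ratios past the activated stage. It was at 578 CPM in CT against 182 CPM in Opa1 cKO activated NSC-like cells (65 and 130 UMIs), which is a log2 ratio of -1.67 (-2.11 to -1.22), while Sox11 in the same cells was at 178 and 112 CPM, which is a log2 ratio of -0.67 (-1.39 to 0.11). The part of the different mix of clusters in these ratios was not tested. Sox4 in cycling progenitor-like cells was at 2386 CPM in CT (2178 to 2609) against 1455 CPM in Opa1 cKO (1312 to 1611), which is a log2 ratio of -0.71 (-0.91 to -0.52). In neuroblast-like cells it was at 4204 CPM (3958 to 4461) and 2869 CPM (2689 to 3057), which is a log2 ratio of -0.55 (-0.68 to -0.42). Nearly all neuroblast-like cells had a Sox4 UMI, 96.9% in CT and 97.1% in Opa1 cKO, and at 1500 UMIs per cell the shares were 97.8% (92.5 to 99.7) and 90.8% (83.3 to 95.7). Sox11 had a UMI in 95.7% of CT (85.5 to 99.5) against 81.4% of Opa1 cKO (70.3 to 89.7) cycling progenitor-like cells, and with each cell thinned to 1500 UMIs in 91.3% and 66.7%.

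**Figure D1:**
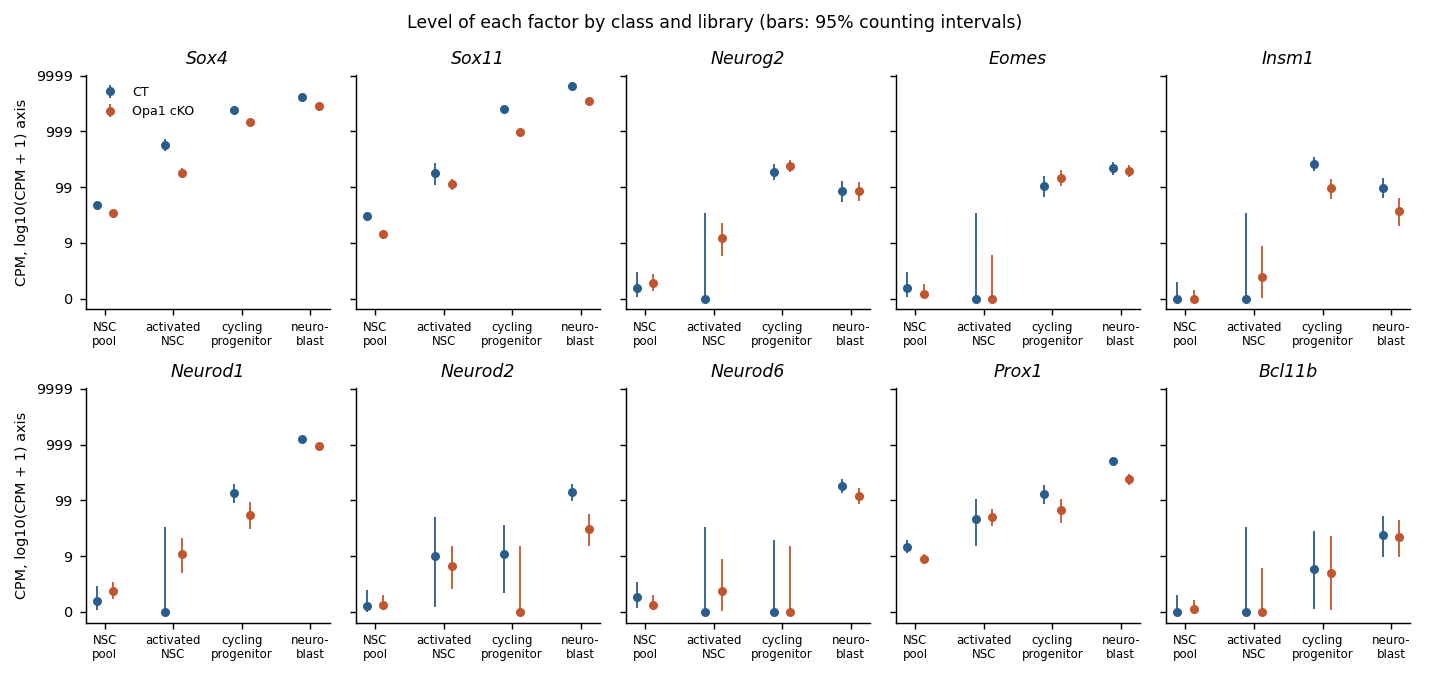
Level of each of the 10 factors (CPM, on a log10(CPM + 1) axis) in NSC pool-like, activated NSC-like, cycling progenitor-like and neuroblast-like cells of the CT (blue) and Opa1 cKO (orange) library. Points are levels of the summed UMIs of a class and bars 95% counting intervals. Sox4 and Sox11 climb from the NSC pool to the neuroblast in both libraries, with the Opa1 cKO point below the CT point in each class.

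Sox4 was also counted outside the lineage. Ependymal-like cells had it at 237 CPM in CT (155 to 348) against 160 CPM in Opa1 cKO (136 to 186), in 33.3% and 31.0% of cells, and endothelial-like cells at 85.9 and 132 CPM, in 23.6% and 37.8% of cells. These levels were above those of the NSC pool (47.1 and 33.9 CPM), and the intervals of both ratios between libraries included 0 (-1.18 to 0.08 and -0.16 to 1.44). Sox11 in ependymal-like cells had 1 UMI in 39 CT cells and 64 UMIs in 274 Opa1 cKO cells (9.13 and 61.5 CPM). This log2 ratio of 2.75 (0.22 to 8.08) was higher in Opa1 cKO and rests on 1 CT UMI. The ependymal-like class joined a cluster of 39 CT and 244 Opa1 cKO cells and one of 0 and 30 cells. The part of this different mix in the ependymal-like ratios was not tested. Sox11 had 1 UMI in 74 CT and 10 UMIs in 3 of 101 Opa1 cKO oligodendrocyte-like cells. The median depths of oligodendrocyte-like cells, 3768 and 3914 UMIs, were above those of neuroblast-like cells (2490 and 2872 UMIs). Sox4 was found in 9.46% and 5.94% of oligodendrocyte-like cells, close to its 10.5% and 9.42% of NSC pool-like cells, so its share in the NSC pool cannot be told apart from free RNA. Its level was 31.3 CPM in CT against 73.5 CPM in Opa1 cKO oligodendrocyte-like cells (14.3 to 59.3 and 50.2 to 104), so the level was not lower there in Opa1 cKO. It came from few cells, 9 UMIs in 7 of 74 CT cells and 32 UMIs in 6 of 101 Opa1 cKO cells, a spread that the intervals do not cover. Neurod2 and Bcl11b had no UMI in oligodendrocyte-like or mural-like cells of either library. Eomes, Neurod1, Neurod6, Neurog2 and Insm1 had at most 3 UMIs in any such set.

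The 3 factors of dividing progenitors differed from one another. Insm1, a zinc-finger factor that promotes the formation of intermediate progenitors, was at its highest in cycling progenitor-like cells and lower in the Opa1 cKO library. It was at 262 CPM in CT (53 UMIs in 29 of 47 cells) against 93.7 CPM in Opa1 cKO (24 UMIs in 17 of 70 cells), which is a log2 ratio of -1.49 (-2.25 to -0.77). Its share of cells was 61.7% (46.4 to 75.5) against 24.3% (14.8 to 36.0), and 28.3% against 11.6% at 1500 UMIs. In neuroblast-like cells it was at 96.6 and 36.2 CPM (25 and 12 UMIs), which is a log2 ratio of -1.42 (-2.54 to -0.37). It had no UMI in NSC pool-like cells of either library, where 3 UMIs would be 0.817 CPM in CT against 0.341 CPM in Opa1 cKO.

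Neurog2, the proneural factor of glutamatergic progenitors, showed no difference beyond counting error in either of these classes. In cycling progenitor-like cells it was at 188 CPM in CT (133 to 258) against 238 CPM in Opa1 cKO (182 to 306), which is a log2 ratio of 0.34 (-0.27 to 0.96). These UMIs came from few cells, 38 UMIs in 8 of 47 CT cells and 61 UMIs in 22 of 70 Opa1 cKO cells. In neuroblast-like cells its levels were 85.0 and 84.5 CPM, which is a log2 ratio of -0.01 (-0.87 to 0.87).

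Eomes was likewise not distinguishable between the libraries at this depth. It was at 104 CPM in CT (21 UMIs) against 144 CPM in Opa1 cKO (37 UMIs) in cycling progenitor-like cells, which is a log2 ratio of 0.47 (-0.34 to 1.32), and at 216 and 193 CPM in neuroblast-like cells, which is a log2 ratio of -0.16 (-0.70 to 0.38). The share of cells with a UMI was 23.4% and 34.3% in the former and 31.3% and 33.3% in the latter, and at 1500 UMIs 15.2% and 20.3%, and 18.3% and 23.5%. Eomes had 0 UMIs in activated NSC-like cells of both libraries, with intervals that reach 32.8 CPM in CT against 5.15 CPM in Opa1 cKO.

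Prox1, the homeodomain factor of dentate granule cells, was low in the NSC pool and highest in neuroblast-like cells. There it was at 506 CPM in CT (423 to 601) against 238 CPM in Opa1 cKO (189 to 297), which is a log2 ratio of -1.09 (-1.51 to -0.67). A UMI was present in 64.6% of CT cells (54.2 to 74.1) against 45.7% of Opa1 cKO cells (36.0 to 55.7). Among cycling progenitor-like cells it was at 129 and 66.3 CPM (26 and 17 UMIs), which is a log2 ratio of -0.96 (-1.93 to -0.02), and in NSC pool-like cells at 13.9 and 7.85 CPM, which is a log2 ratio of -0.82 (-1.36 to -0.27). Prox1 was not confined to the lineage, since oligodendrocyte-like cells held 79.9 CPM in CT against 52.8 CPM in Opa1 cKO, in 24.3% and 19.8% of cells. Mural-like cells held 1 UMI in each library (5.97 and 3.04 CPM). The part of free RNA in the low Prox1 level of the NSC pool was not tested.

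Neurod1, needed for the survival and maturation of newborn granule neurons, followed Sox11 and Sox4 in the number of UMIs in neuroblast-like cells. It was at 1267 CPM in CT (1134 to 1412) against 935 CPM in Opa1 cKO (834 to 1045), which is a log2 ratio of -0.44 (-0.67 to -0.21). Similar shares of cells held a UMI, 79.2% in CT (69.7 to 86.8) and 74.3% in Opa1 cKO (64.8 to 82.3), and at equal depth the shares were 75.3% and 60.2%. Among cycling progenitor-like cells it was at 134 CPM in CT (27 UMIs in 7 cells) against 54.6 CPM in Opa1 cKO (14 UMIs in 4 cells), which is a log2 ratio of -1.29 (-2.34 to -0.31). The 12 Neurod1 UMIs in 2644 Opa1 cKO NSC pool-like cells and 2 UMIs in 1340 CT cells gave no difference beyond counting error (0.84 lower to 4.53 higher on the log2 scale).

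Its 2 relatives in differentiating neurons had fewer UMIs. Neurod2, a factor of excitatory neurons, was at 139 CPM in CT (36 UMIs in 25 of 96 cells) against 30.2 CPM in Opa1 cKO (10 UMIs in 9 of 105 cells) in neuroblast-like cells. This log2 ratio of -2.21 (-3.38 to -1.16) was the lowest of the 9 factors in that class, and it rests on 46 UMIs. Its values within finer stages, whose mix differed between libraries, are given below. Neurod6, also of excitatory neurons, was at 182 CPM in CT (47 UMIs) against 121 CPM in Opa1 cKO (40 UMIs), which is a log2 ratio of -0.59 (-1.24 to 0.05), with a UMI in 24 of 96 and 26 of 105 cells (17.2% and 14.3% at 1500 UMIs). Bcl11b had 6 and 7 UMIs in neuroblast-like cells, and its log2 ratio of -0.13 (-1.93 to 1.71) neither shows nor limits a difference.

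**Figure D2:**
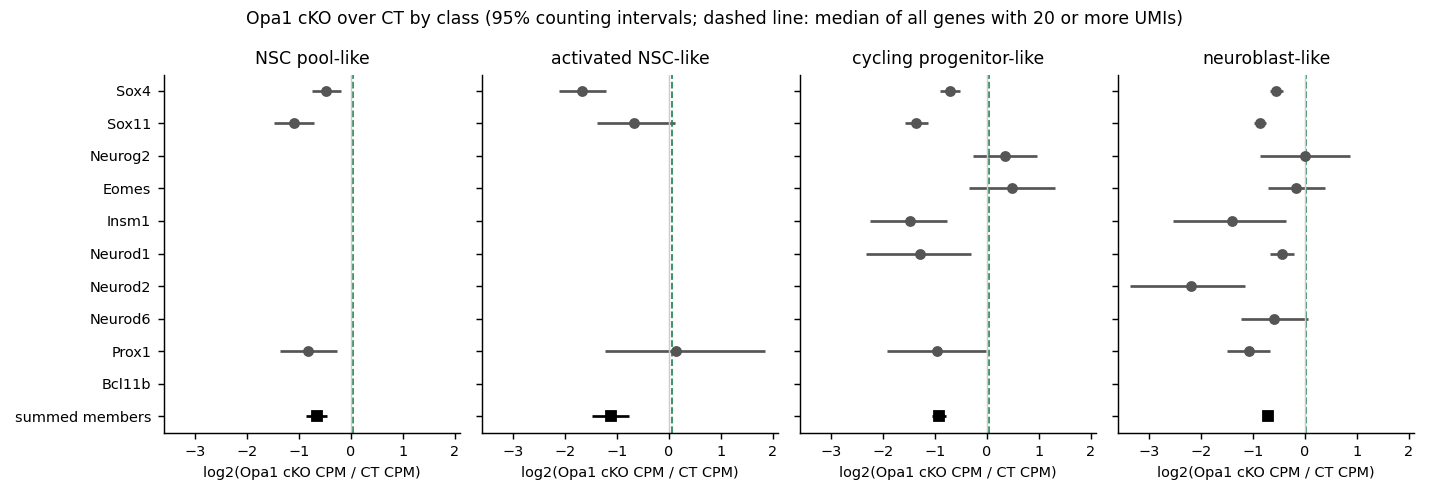
Log2 ratio of CPM, Opa1 cKO over CT, for each factor with at least 20 UMIs in a class (grey circles) and for the 10 factors summed (black squares), with 95% counting intervals. The dashed green line is the median of all genes with at least 20 UMIs in the class. The squares lie at -0.66, -1.12, -0.92 and -0.71 from the NSC pool to the neuroblast, while the dashed lines lie within 0.1 of 0.

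Summed over the 10 factors, Opa1 cKO stood at -0.66 (-0.86 to -0.46) relative to CT on the log2 scale in NSC pool-like cells. The sum stood at -1.12 (-1.47 to -0.76) in activated NSC-like, -0.92 (-1.05 to -0.79) in cycling progenitor-like and -0.71 (-0.78 to -0.63) in neuroblast-like cells. Most of the summed UMIs were of Sox4 and Sox11, with 1088 and 1661 of 3400 UMIs in CT neuroblast-like cells. In Opa1 cKO neuroblast-like cells they gave 951 and 1165 of 2666 UMIs. The sum, here and below, thus mainly follows these 2 genes and does not describe each of the 10. Among factors with at least 20 UMIs, those at least 2-fold lower in Opa1 cKO were 1 of 3 in NSC pool-like cells (Sox11, against 3.98% of all genes with that many UMIs), and 1 of 3 in activated NSC-like cells (Sox4, against 7.54%). They were 3 of 7 in cycling progenitor-like cells (Sox11, Neurod1 and Insm1, against 8.37%), and 3 of 9 in neuroblast-like cells (Prox1, Neurod2 and Insm1, against 8.00%). In the 2 last classes joined they were again Prox1, Neurod2 and Insm1 (against 8.52%). No factor was 2-fold higher in any of these classes, against 4.60%, 12.3%, 6.72%, 6.02% and 5.14% of all genes. The medians of the factors were -0.82, -0.67, -0.96, -0.59 and -0.60, and those of all genes 0.04, 0.07, 0.04, 0.01 and -0.01.

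Cells with markers of other types were present in the progenitor and neuron-like class and differed in number between libraries. At least 2 UMIs of the GABAergic list were counted in 14 of 143 cells from CT against 7 of 175 from Opa1 cKO, and at least 2 UMIs of the oligodendrocyte precursor list in 1 and 7 cells. The GABAergic list summed to 306 CPM in CT against 160 CPM in Opa1 cKO, and the oligodendrocyte precursor list to 23.9 and 109 CPM, with Olig1 at 0 and 32 UMIs. Within the GABAergic list Dlx1 was at 76.0 and 8.51 CPM, while Gad1 was at 15.2 and 66.4 CPM. The Cajal-Retzius list summed to 47.7 and 1.70 CPM (22 UMIs and 1 UMI), with Lhx5 and Trp73 at 0 in both libraries. The microglia list had 2 UMIs in CT and 0 UMIs in Opa1 cKO. With cells of the GABAergic and oligodendrocyte precursor lists left out, the summed log2 ratio was -0.93 (-1.08 to -0.79) in cycling progenitor-like and -0.60 (-0.68 to -0.53) in neuroblast-like cells. Sox11 stood at -1.31 and -0.77, Insm1 at -1.54 and -1.26 and Neurod2 at -2.11 in neuroblast-like cells. Prox1 moved to -0.95 (-1.38 to -0.53) in neuroblast-like cells and so no longer reached a 2-fold difference there, and stood at -1.27 (-2.37 to -0.23) in cycling progenitor-like cells.

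Per cell, the median and both quartiles of the summed factors were lower in Opa1 cKO. Each cell was thinned to 1500 UMIs and the UMIs of the 10 factors were summed. In cycling progenitor-like cells the median was 8.5 UMIs in CT (46 cells, quartiles 4 and 12.8, highest 28) and 4 UMIs in Opa1 cKO (69 cells, quartiles 2 and 7, highest 14). In neuroblast-like cells the median was 21 UMIs in CT (93 cells, quartiles 16 and 25, highest 41) and 13.5 UMIs in Opa1 cKO (98 cells, quartiles 10 and 18, highest 26). The ranges overlapped, since each set held cells with 0 UMIs, and the upper quartile in Opa1 cKO lay below the CT median in both classes.

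**Figure D3:**
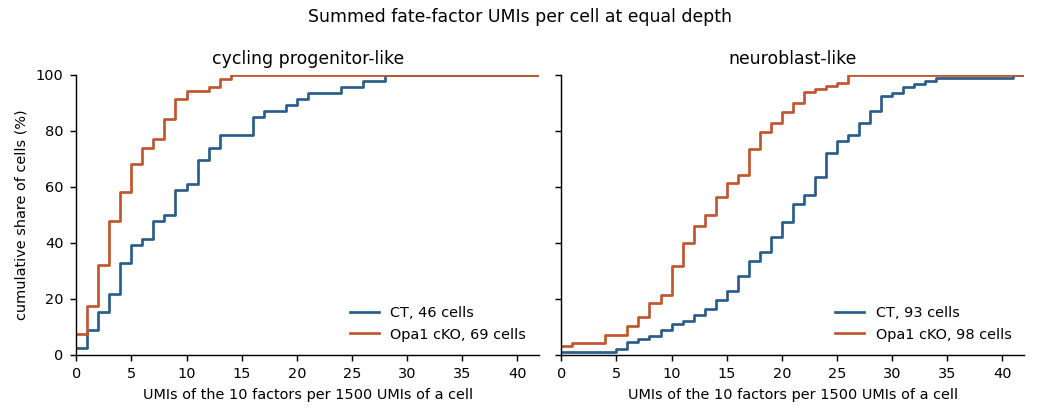
Cumulative share of cells (y axis, %) by the summed UMIs of the 10 factors in a cell thinned to 1500 UMIs (x axis), for cycling progenitor-like and neuroblast-like cells of CT (blue) and Opa1 cKO (orange). The Opa1 cKO curves lie to the left, with medians of 4 against 8.5 and 13.5 against 21 UMIs, and end at 14 and 26 UMIs.

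Combinations of factors in the same cell were also counted. Sox4 and Sox11 occurred together in 94.4% of the CT but 88.6% of the Opa1 cKO progenitor and neuron-like cells, and in 90.7% and 75.5% at 1500 UMIs. Neurod1 and Prox1 together, the pair of the granule cell fate, occurred in 52 of 96 CT (54.2%) against 39 of 105 Opa1 cKO (37.1%) neuroblast-like cells, and in 39.8% and 21.4% at 1500 UMIs. Eomes without Neurod1 occurred in 13 of 143 CT (9.09%) against 29 of 175 Opa1 cKO (16.6%) progenitor and neuron-like cells. At 1500 UMIs these shares were 7.19% and 16.2%. Cells with both Eomes and Neurod1 made up 19.6% and 17.1%, and 10.1% and 5.99% at 1500 UMIs. In cells of this depth a missing UMI does not mean that a gene was not expressed.

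The lineage cluster that holds these cells was also divided at a higher resolution, so that the libraries could be compared within a stage. It gave 5 finer stages of dividing or neuron-like cells, with 144 CT and 182 Opa1 cKO cells in all, each called by a leading gene. This division was chosen after the first results were seen. Dividing cells fell into a stage led by Mcm3, a DNA replication gene (27 CT and 47 Opa1 cKO cells), and one led by Ccnb1, a mitotic cyclin (21 and 21 cells). Among the others, a stage led by Eomes (12 and 42 cells) and one led by Nhlh2, a helix-loop-helix gene of early neurons (47 and 26 cells), were neuroblast-like. No type for intermediate progenitors was among the names, and in the Eomes-led stage cycling progenitor markers came second (a share of 0.667). The name thus does not set intermediate progenitors apart from neuroblasts. A stage led by Cck, a neuropeptide gene, stayed unnamed (37 and 46 cells). All 11 neuroblast markers and a share of 0.917 of the immature neuron markers were above 2-fold in it. But its 10 leading genes held no neuroblast marker and included Snap25, Nrgn and Syt1, markers of immature neurons, and Vip and Gad1, of GABAergic neurons. The mix differed between libraries, as the Eomes-led stage held 8.33% of CT (4.38 to 14.1) and 23.1% of Opa1 cKO cells (17.2 to 29.9) and the Nhlh2-led stage 32.6% (25.1 to 40.9) and 14.3% (9.55 to 20.2). Since Eomes leads a stage, its level there is no result.

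Sox4 and Sox11 were lower in the Opa1 cKO library within each of the 5 stages. In the order Mcm3-led, Ccnb1-led, Eomes-led, Nhlh2-led and Cck-led, the log2 ratio of Sox11 was -1.57, -1.20, -0.44, -0.65 and -1.05, and every interval lay below 0. That of Sox4 was -0.65, -1.11, -0.40, -0.22 and -0.96, with the interval nearest to 0 in the Nhlh2-led stage (-0.45 to -0.01). In Nhlh2-led cells Sox11 was at 7872 CPM in CT (7390 to 8378) against 5034 CPM in Opa1 cKO (4522 to 5589).

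Neurod1 and Prox1 both had lower ratios in Cck-led than in Nhlh2-led cells. Neurod1 was at 1230 CPM in CT against 1573 CPM in Opa1 cKO in Nhlh2-led cells, which is a log2 ratio of 0.36 (-0.01 to 0.72), and at 1676 and 949 CPM in Cck-led cells, which is a log2 ratio of -0.82 (-1.15 to -0.49). Prox1 was at 429 and 372 CPM in Nhlh2-led cells, which is a log2 ratio of -0.20 (-0.94 to 0.50), and at 695 and 243 CPM in Cck-led cells, which is a log2 ratio of -1.51 (-2.12 to -0.92). In Eomes-led cells Neurod1 stood at -0.14 (-0.88 to 0.65) and Prox1 at -0.93 (-1.94 to 0.14). In Ccnb1-led cells they stood at -0.54 (-1.62 to 0.49) and -1.08 (-2.60 to 0.28). In Mcm3-led cells Neurod1 had 5 UMIs in CT and 0 UMIs in Opa1 cKO, and Prox1 stood at -0.95 (-2.49 to 0.55). Neurod2 was itself among the 10 leading genes of the Nhlh2-led stage. There it had 21 UMIs in CT and 6 UMIs in Opa1 cKO, which is a log2 ratio of -0.96 (-2.56 to 0.40). In Cck-led cells it had 14 and 7 UMIs, which is a log2 ratio of -1.86 (-3.41 to -0.45). The other stages held too few Neurod2 UMIs for a ratio. The Cck-led stage held more UMIs of Gad1, a GABAergic marker, in Opa1 cKO, at 11 CPM in CT against 231 CPM in Opa1 cKO (in 1 and 3 cells). Snap25, a marker of immature neurons, was at 143 and 791 CPM (in 7 and 15 cells). Vip came from 1 cell in each library (8 and 57 UMIs). 3 Opa1 cKO neuroblast-like cells had 5 or more UMIs of Gad1 or Gad2. The part of these cells in the ratios of this stage was not tested.

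Among the progenitor factors, Insm1 was lower in Ccnb1-led cells, with 39 UMIs in 17 of 21 CT cells and 10 UMIs in 5 of 21 Opa1 cKO cells (365 and 101 CPM, which is a log2 ratio of -1.85, -3.02 to -0.82). It was also lower in Eomes-led cells, at 356 and 65.6 CPM, which is a log2 ratio of -2.44 (-3.82 to -1.16), from 15 UMIs in 5 of 12 CT cells and 9 UMIs in 9 of 42 Opa1 cKO cells. In the larger dividing stage, led by Mcm3, its ratio was -0.73 (-1.94 to 0.47), in Nhlh2-led cells -0.15 (-2.78 to 2.08) and in Cck-led cells -1.86 (-5.32 to 0.95), so these intervals included 0. Neurog2 had opposite ratios in the 2 dividing stages. In Mcm3-led cells it was at 371 CPM in CT (36 UMIs in 6 of 27 cells) against 181 CPM in Opa1 cKO (27 UMIs in 11 of 47 cells). This is a log2 ratio of -1.04 (-1.82 to -0.28). In Ccnb1-led cells it was at 18.7 CPM (2 UMIs in 2 of 21 cells) and 304 CPM (30 UMIs in 10 of 21 cells). This is a log2 ratio of 4.02 (2.04 to 7.13). These UMIs came from few cells, and the intervals do not cover the spread between cells. Mki67, a marker of cycling cells, also differed in Ccnb1-led cells, at 431 CPM in CT against 172 CPM in Opa1 cKO. This is a log2 ratio of -1.32 (-2.22 to -0.49), so the cells of this stage may differ in cycle state. The part of cycle state in the Insm1 and Neurog2 ratios was not tested.

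**Figure D4:**
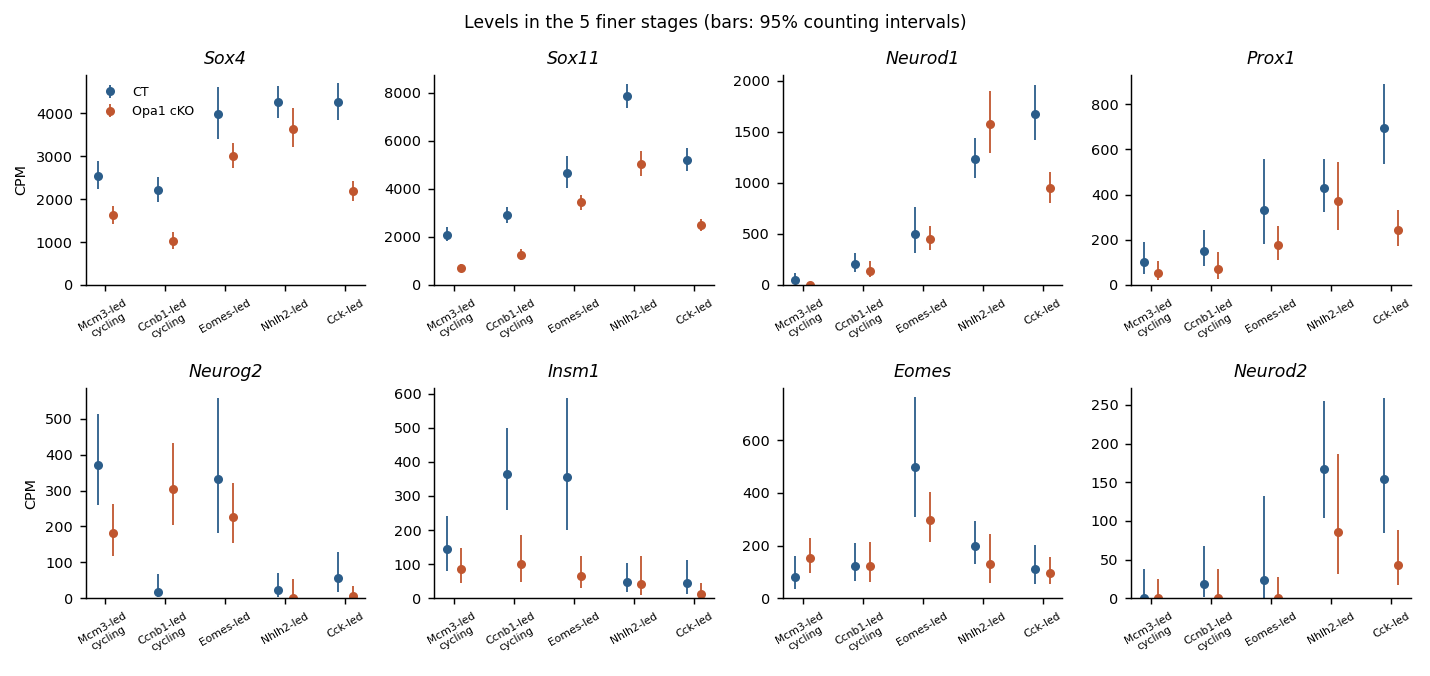
CPM of 8 factors in the 5 finer stages for CT (blue) and Opa1 cKO (orange), each panel on its own linear axis from 0, with 95% counting intervals. Sox4 and Sox11 are lower in Opa1 cKO in every stage, Neurod1 and Prox1 are clearly apart in the Cck-led stage, and Neurog2 in the Ccnb1-led stage is at 18.7 CPM in CT against 304 CPM in Opa1 cKO.

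Within the Opa1 cKO library, cells differ in how far mitochondrial transcripts have dropped, and the factors were therefore compared between cells with under 1% of UMIs from the 13 mitochondrial mRNAs and cells at or above 1%. CPM in this comparison leaves mitochondrial UMIs out of the total. The median mitochondrial share of progenitor and neuron-like cells was 4.22% in CT against 1.04% in Opa1 cKO, and 80 of 175 Opa1 cKO cells but only 3 of 143 CT cells were under 1%. Since 67 of the Opa1 cKO cells lay within 0.25 percentage points of 1%, the 2 sets are parts of 1 range.

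Over this class the 10 factors summed to 5922 CPM under 1% (5635 to 6219) and 5980 CPM at or above 1% (5711 to 6260), which is a log2 ratio of -0.01 (-0.11 to 0.08). This value depended on the limit and on the cells included. It was -0.91 with a limit of 0.5%, where only 15 cells lay under the limit, 0.22 with a limit of 2% and 0.80 in the undivided lineage cluster. At the limit of 1%, Sox11 was at 2408 and 2486 CPM, which is a log2 ratio of -0.05 (-0.20 to 0.11), and Sox4 at 2301 and 2275 CPM, which is a log2 ratio of 0.02 (-0.14 to 0.17). Neurod1 stood at 0.17 (-0.15 to 0.50), Prox1 at 0.25 (-0.36 to 0.86), Eomes at -0.24 (-0.85 to 0.35) and Insm1 at -0.81 (-1.94 to 0.25). None of the 8 factors with at least 20 UMIs differed 2-fold, against 3.41% of all genes lower and 2.78% higher. Both sets lay below CT, the summed factors at -0.81 (-0.89 to -0.72) under 1% and at -0.79 (-0.87 to -0.71) at or above 1%. 3 of 9 factors were at least 2-fold lower than CT under 1% (Sox11, Neurod2 and Insm1, against 11.5% of all genes), and 3 of 9 at or above 1% (Prox1, Neurod2 and Insm1, against 10.0%). None was 2-fold higher, against 4.06% and 3.82%. These comparisons share the CT cells.

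The 2 stages joined in this class went opposite ways. In neuroblast-like cells the summed factors were lower under 1% (53 cells) than at or above 1% (52 cells), at 7402 CPM (6998 to 7822) and 8962 CPM (8500 to 9443), which is a log2 ratio of -0.28 (-0.39 to -0.17). Sox11 (-0.35, -0.52 to -0.18) and Eomes (-0.95, -1.75 to -0.17; 23 and 41 UMIs) had intervals below 0, and Sox4 (-0.17, -0.36 to 0.02) did not. Cycling progenitor-like cells had a sum of 3422 CPM under 1% (27 cells) and 2882 CPM at or above 1% (43 cells), which is a log2 ratio of 0.25 (0.04 to 0.45), with Sox11 at 0.35 (-0.02 to 0.72). In the finer stages the summed ratio was -0.74 (-0.93 to -0.56) among 46 Cck-led cells and 0.40 (0.10 to 0.70) among 47 Mcm3-led cells, and the other intervals included 0. It was -0.13 (-0.31 to 0.05) in Eomes-led and -0.005 (-0.215 to 0.204) in Nhlh2-led cells. The Cck-led stage also held the cells with Gad1, Vip and Snap25 UMIs described above. Without cells of the GABAergic list the ratio over the joined class was 0.13, against -0.01 with them. The part of such cells in the ratios of each stage was not tested. No factor with at least 20 UMIs passed 2-fold in either class, where 3.53% of all genes were lower and 4.06% higher in neuroblast-like and 5.49% and 3.31% in cycling progenitor-like cells.

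The earlier stages differed again, and the activated NSC-like class joins the 2 clusters given above, whose part in the following ratios was not tested. In Opa1 cKO activated NSC-like cells, Sox11 was at 307 CPM under 1% (36 UMIs in 47 cells) and 75.4 CPM at or above 1% (44 UMIs in 195 cells), which is a log2 ratio of 2.02 (1.35 to 2.69). It was the only one of 3 factors to pass 2-fold there, against 4.75% of all genes higher, and none was 2-fold lower, against 7.33%. Sox4 stood at 0.82 (0.21 to 1.40). CT activated NSC-like cells held Sox11 at 189 CPM (115 to 292), between the 2 sets, and Sox4 at 614 CPM, above both (290 and 165 CPM). In NSC pool-like cells the ratios of Sox4, Sox11 and Prox1 were -0.17, 0.00 and -0.42 with every interval including 0, and none passed 2-fold (against 2.08% lower and 2.20% higher).

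**Figure D5:**
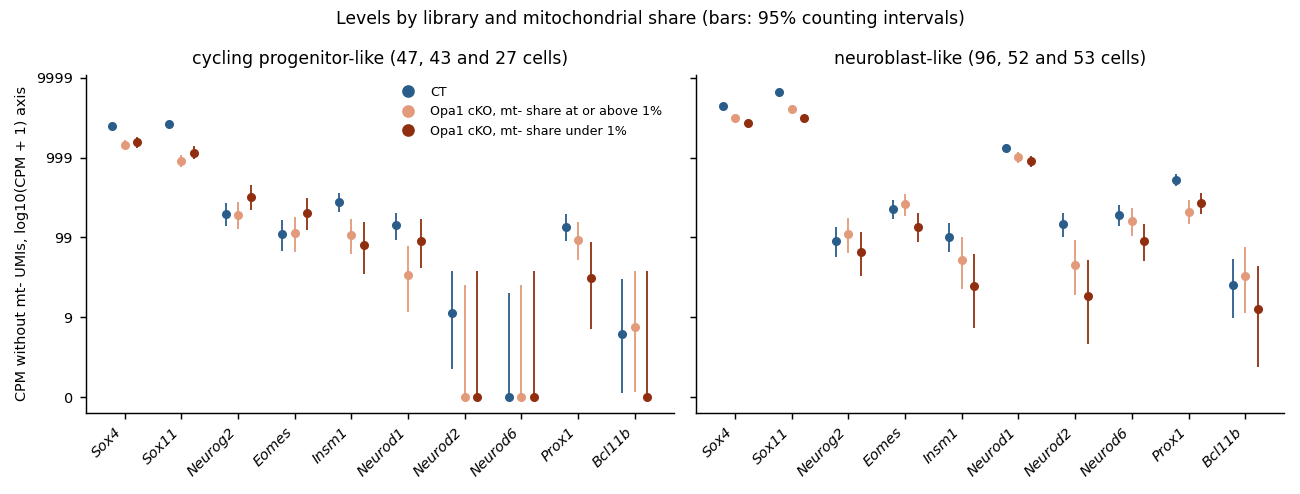
CPM without mitochondrial UMIs (log10(CPM + 1) axis) of each factor in CT cells (blue), Opa1 cKO cells with a mitochondrial (mt-) share at or above 1% (light orange) and Opa1 cKO cells under 1% (dark red), for cycling progenitor-like (47, 43 and 27 cells) and neuroblast-like cells (96, 52 and 53 cells), with 95% counting intervals. For Sox4 and Sox11 both Opa1 cKO points lie below CT, and the gap between them is smaller than their distance to CT.

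The fate factors were set beside other genes of the pathway in progenitor and neuron-like cells. Of 36 other neurogenic transcription factors, 31 had at least 20 UMIs, of which 4 (Bhlhe22, Satb1, Nhlh2 and Myt1) were at least 2-fold lower and 0 at least 2-fold higher in Opa1 cKO, against 8.52% and 5.14% of all genes. 21 ratios were below 0, and the median was -0.46 (-0.01 over all genes). Tcf4, the E-protein partner of Neurod1 and Neurog2, was at 2721 CPM in CT against 1632 CPM in Opa1 cKO, which is a log2 ratio of -0.74 (-0.86 to -0.62). The nuclear factor I genes Nfib, Nfia and Nfix stood at -0.68, -0.45 and -0.54. Of 12 antagonists of proneural factors, such as Id, Hes and Hey genes and Sox2, 7 had at least 20 UMIs, none was 2-fold apart, and the median was 0.09. Sox2 was at 286 and 235 CPM, which is a log2 ratio of -0.29 (-0.64 to 0.07), and Hes5 at 58.6 and 83.4 CPM, which is a log2 ratio of 0.51 (-0.20 to 1.24).

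Neuronal structural genes differed from one another. All 26 had at least 20 UMIs, 5 (Cd24a, Dcx, Draxin, Nrxn3 and Cxcr4) were at least 2-fold lower and 0 higher, against the same 8.52% and 5.14% of all genes, and the median was -0.23. Dcx, a microtubule-associated protein and one of the neuroblast markers used to name classes, was at 356 CPM in CT against 170 CPM in Opa1 cKO, which is a log2 ratio of -1.07 (-1.44 to -0.70). In the finer stages, Mcm3-led to Cck-led in the order above, Dcx stood at -0.85, -1.06, -0.41, -0.89 and -1.21, with the intervals of the Nhlh2-led and Cck-led stages below 0. Stmn1, a regulator of microtubules, was at 5136 CPM in CT against 5000 CPM in Opa1 cKO, which is a log2 ratio of -0.04 (-0.12 to 0.04). Igfbpl1 stood at 0.15 (0.04 to 0.26) and Nnat at 0.73 (0.61 to 0.85), while Sox4 and Sox11 in the same cells stood at -0.60 and -0.97. Stmn1, Igfbpl1 and Nnat are, like Dcx, neuroblast markers used to name classes. Unlike Sox4 and Sox11, these markers were not kept out of the clustering, so the classes may rest partly on their levels. The contrast therefore does not show that structural genes were spared, and the part of this choice in it was not tested. Of 53 genes of the integrated stress response, 43 had at least 20 UMIs, 19 were at least 2-fold higher and 1 (Iars) lower, against 5.14% and 8.52% of all genes, with a median of 0.88. The mitochondrial mRNAs had a median of -1.30, with 8 of 11 at least 2-fold lower, against the same 8.52%.

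Across 16 sets (8 classes in each library), genes other than the 10 factors were ranked by likeness of level to Sox11 and to Neurod1, on log2(CPM + 10). The most alike were neuronal genes. For Sox11 the 5 highest Pearson correlations among 586 genes were with Stmn3 (0.98), Elavl4 (0.97), Elavl2 (0.97), Nfib (0.96) and Igfbpl1 (0.96). For Neurod1 they were with Mllt11 (0.96), Elavl2 (0.94), Igfbpl1 (0.94), Ttc3 (0.93) and Tubb3 (0.93). Among the other factors, the highest were Sox4 for Sox11 (0.95) and Bcl11b for Neurod1 (0.98), the latter a gene with few UMIs. These are descriptions over sets that share libraries and depth. The classes were also named from neuronal markers, among them Igfbpl1, Tubb3 and Mllt11. The 586 genes all had at least 300 UMIs in progenitor and neuron-like cells. A likeness to neuronal genes is therefore partly given by how the sets and genes were chosen. The genes of most similar order across classes thus included Igfbpl1 for both factors, although its ratio between libraries had the opposite sign.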

How the data were processed

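Libraries of the 10x Genomics 3′ v2 assay were used, 1 for CT and 1 for Opa1 cKO, each of YFP+ hippocampal cells pooled from 3 mice. The authors counted UMIs per gene and barcode, and what they deposited are raw counts, with barcodes outside the study's filters still included. The submitters' processing notes name Cell Ranger 2.1.1 and mm10, while the file header gives software version 3.1.0. The annotation used for counting is not given in the sources used here.

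Kept cells had over 600 and under 7500 genes, under 20% mitochondrial UMIs and at least 1 YFP UMI, which left fewer cells than the study states. 42.8% of CT and 61.5% of Opa1 cKO cells had a YFP UMI. Counts were normalized with SCTransform (Seurat 5.3.0, sctransform 0.4.2, R 4.3.3) and clustered on 8 dimensions at a resolution of 0.2, and lineage cells on 12 dimensions at 0.1. The lineage cluster with progenitors was clustered again on 8 dimensions at 0.4, and at 1.2 for the finer stages, a step added after the first results were seen. A small stage with microglia markers (3 CT and 73 Opa1 cKO cells) was left out of the classes but stayed in the total of lineage cells. A marker counted when it was more than 2-fold above the median of the clusters of all kept cells, with 10 CPM added. A cluster could take only the type with the highest share of such markers, with at least 3 of them and at least 33.3%. It stayed unnamed when its 10 leading genes held more markers of another type. This form of the rule was set after clusters had been seen. In neuroblast-like cells the GABAergic list came second, with a share of 0.875 of its markers. Automatic doublet thresholds marked almost no cell, so no cell was removed as a doublet in the main setting.

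UMIs were summed per class and library and divided by all UMIs of the class (CPM). Intervals at 95% are exact, Poisson for CPM, Clopper-Pearson for shares and the binomial split of 2 counts for log2 ratios, and cover counting error only. A gene with 0 UMIs in 1 set was placed at 3 counts and read as a bound. Genes with at least 20 UMIs in the 2 sets entered counts and medians. With 1 library per genotype, no test was made, and cells were not used as replicates. The text names the 10 factors, Opa1, up to 4 genes per list with most UMIs and the 5 other genes most like Sox11 and Neurod1 among those with at least 300 UMIs. Other genes were chosen after their values were seen. The members and lists were chosen with earlier results of these data known. Promoter windows are from RefSeq and gene positions from GENCODE. Alternatives concerned normalization, the filters on YFP and doublets, genes used for clustering, resolution, denominator, weighting and thinning of cells, the mitochondrial limit and the minimum of UMIs. The interval code was tested on simulated data. Other steps used Python 3.11.15, matplotlib 3.10.9, scanpy 1.11.5, pandas 2.3.3, numpy 2.4.6 and scipy 1.17.1.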

Additional observations from a re-analysis of the deposited data

Results flagged for a closer look

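Barcodes that met the limits on detected genes and mitochondrial UMIs but had no YFP UMI entered no comparison above, and the fate factors were present in them. Their summed level was 558.8 CPM (538.9 to 579.1) in 2396 CT barcodes and 280.0 CPM (266.6 to 293.9) in 2357 Opa1 cKO barcodes, where 3 UMIs would be 0.558 and 0.5103 CPM. In YFP+ cells it was 1010 and 383 CPM. In the clustering without the YFP filter, 86 CT and 56 Opa1 cKO barcodes without a YFP UMI fell in the progenitor and neuron-like class. There the 10 factors summed to 12450 CPM in CT (11960 to 12950) and 8638 CPM in Opa1 cKO (8130 to 9170), against 10100 and 5901 CPM in YFP+ cells. Sox11 was at 5840 and 3348 CPM, Sox4 at 4191 and 3316 CPM and Neurod1 at 1283 and 1052 CPM in these barcodes. Their median mitochondrial share was 3.70% in CT and 1.29% in Opa1 cKO. All barcodes come from the sort for YFP, and a missing YFP UMI does not show that a cell lacked YFP.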

How the results depend on the processing

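The values of progenitor and neuron-like cells were computed under 13 alternatives, 5 of them, on cells of other types, the undivided lineage cluster and the 5% of cells with the highest doublet scores, chosen after the data had been seen. The last was added because the planned removal of called doublets concerned 2 of 4209 CT and 5 of 6138 Opa1 cKO cells scored, before the YFP filter. Sox4, Sox11, Prox1, Neurod1, Neurod2, Neurod6 and Insm1 were below CT in all 13, with ranges of -1.50 to -0.48, -1.88 to -0.91, -1.60 to -0.88, -1.40 to -0.45, -3.91 to -1.21, -1.50 to -0.51 and -2.41 to -1.21. Eomes (-0.98 to 0.13), Neurog2 (-0.68 to 0.26) and Bcl11b (-1.18 to 0.30) took either sign. The median of the factors moved from -0.60 to -0.91 with log-normalization before clustering, -0.99 with cells thinned to 1500 UMIs and -1.50 in the undivided cluster. The summed ratio moved from -0.76 to -1.05 with log-normalization, -0.65 with finer stages weighted by CT cell numbers (also chosen after seeing the data) and -1.65 in the undivided cluster. The share of lineage cells, 9.37% in CT and 5.53% in Opa1 cKO, was 10.5% and 7.34% with log-normalization and 6.56% and 5.19% without the YFP filter. The ratio between mitochondrial shares within Opa1 cKO, -0.01, was least stable, at -0.13 without the YFP filter, 0.13 without cells of the GABAergic list, 0.80 in the undivided cluster, -0.91 with the limit at 0.5% (15 cells under it) and 0.22 with the limit at 2%. Genes at least 2-fold lower numbered 608 of 7140, 1388 of 10726 with a minimum of 5 UMIs per gene and 186 of 3913 with a minimum of 50. Factors at least 2-fold lower numbered 3 of 9, 3 of 10 and 2 of 8 at these minimums. The cause of these shifts was not tested. No paired analysis was possible because each genotype is 1 library. Counting error limits Bcl11b, Neurod2 and Neurod6 most, and the spread between mice cannot be seen in pooled libraries.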
